A study of Schizosaccharomyces pombe with 2 samples.

Results

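The 7 genes described here are annotated as enzymes of the kinds that form ethanol from pyruvate in fission yeast, Schizosaccharomyces pombe. They are 4 pyruvate decarboxylases (pdc101, annotated as putative, pdc102, pdc201 and pdc202) and 3 alcohol dehydrogenases (adh1, adh4 and adh8). The part of each gene in ethanol formation was not measured. The genes were chosen by name and identifier, and all 7 were found among the 5076 genes of the deposited table. The library of cells lacking ppr10 was set against a library of wild-type cells, both grown to logarithmic phase, with 1 library in each group. The gene ppr10 encodes a mitochondrial pentatricopeptide repeat protein, a family that binds RNA in organelles, and the submitters sought a cause of cell death. The sources used here do not give the strain background, the way ppr10 was deleted, the culture medium or the number of clones.

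Pyruvate decarboxylase, which needs thiamine diphosphate, splits carbon dioxide from pyruvate and leaves acetaldehyde. Alcohol dehydrogenase reduces acetaldehyde to ethanol with NADH, which returns the NAD+ that glycolysis uses. Fission yeast ferments glucose in this way even when oxygen is present, and cells that cannot respire depend on it more heavily.

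In the deletion library 16885000 reads mapped uniquely to genes and in the wild-type library 17053000, each to the nearest 1000. The library labelled as the deletion had 12 reads of ppr10, against 1879 in wild type. Levels are RPKM, which divides reads by gene length and by the reads of the library, so they can be compared between genes. Intervals are exact 95% intervals, cover counting error only, and say nothing of the spread between cultures. With 1 library per group there is no test, and every difference describes these libraries.

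Of the 7 genes, 1 was higher in the deletion library by the 2-fold rule, none was lower and 6 lay between. The gene that was higher was adh8. The rule asks for a log2 difference of RPKM + 1 of at least 1 in size and a mean of 1 RPKM or more, and all 7 genes met that level. Over the 4986 genes at that level, 2.79% were higher and 1.14% were lower, 3.93% together, so 1 called gene in 7 is too few to set the group apart. Log2 differences were positive for 6 of the 7, with a median of 0.16, where 57.1% of all genes were positive with a median of 0.05.

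**Figure D1:**
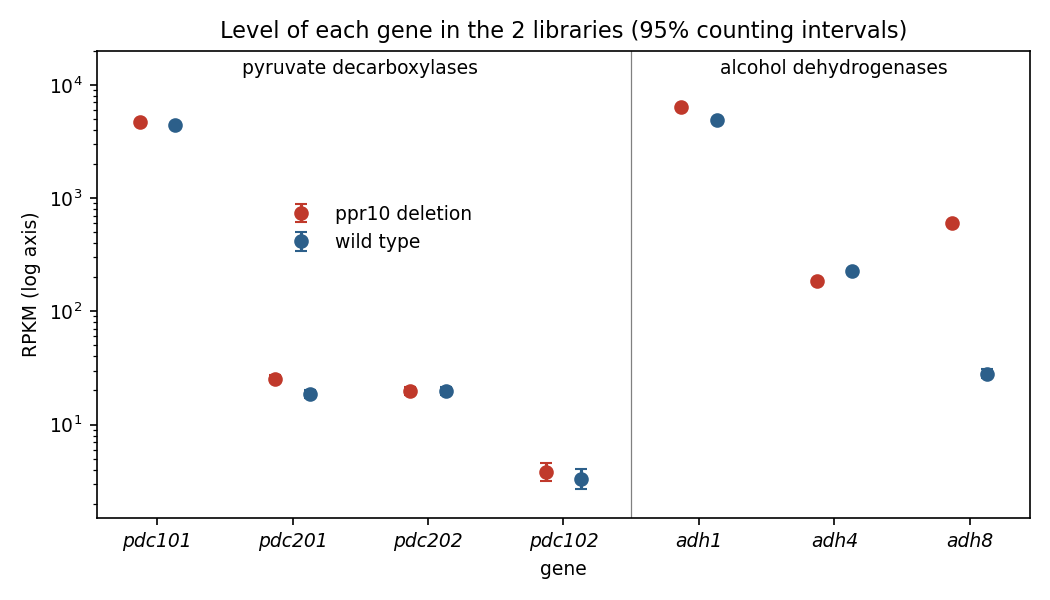
RPKM on a log axis of the 4 pyruvate decarboxylase and 3 alcohol dehydrogenase genes in the ppr10 deletion library (red, left) and the wild-type library (blue, right); bars are 95% counting intervals and are smaller than the points for the well expressed genes. The genes pdc101 and adh1 are the highest of the 7 in both libraries, and adh8 is the gene whose points lie farthest apart, at 599 RPKM in the deletion and 28.1 in wild type.

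Pyruvate decarboxylase message came almost entirely from a single gene. The main paralogue, the one with the highest mean level, was pdc101 (SPAC1F8.07c, chromosome I). It had 4730.5 RPKM (136347 reads) in the deletion library, against 4392 RPKM (127845 reads) in wild type. By level it held rank 10 of all genes in the deletion and rank 9 in wild type. The ratio of deletion to wild type was 1.08 (1.07 to 1.09), far below 2-fold.

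The minor decarboxylase genes were weakly expressed in both libraries. The gene pdc201 (SPAC3G9.11c, chromosome I) had 25.4 RPKM (735 reads) in the deletion and 18.7 RPKM (547 reads) in wild type, a ratio of 1.36 (1.21 to 1.52). The gene pdc202 (SPAC13A11.06, chromosome I) had 19.9 RPKM (578 reads) in the deletion and 19.65 RPKM (575 reads) in wild type, a ratio of 1.02 (0.903 to 1.14). The lowest was pdc102 (SPAC186.09, chromosome I), with 3.82 RPKM (111 reads) in the deletion and 3.31 RPKM (97 reads) in wild type, a ratio of 1.16 (0.872 to 1.53). For pdc202 and pdc102 a difference was not detectable at this depth, and the sign of the difference of pdc202 turned with the scaling of the libraries.

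The order of the decarboxylase genes was pdc101, then pdc201 and pdc202, then pdc102. In wild type the levels of pdc201 and pdc202 could not be told apart, with a ratio of pdc201 to pdc202 of 0.953 (0.846 to 1.07). In the deletion library pdc201 stood above pdc202, at a ratio of 1.27 (1.14 to 1.42). The level of pdc202 was 5.22 times that of pdc102 in the deletion (4.25 to 6.45) and 5.94 times in wild type (4.78 to 7.44).

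Of the summed RPKM of the 4 decarboxylase genes, pdc101 held 99.0% in the deletion library (98.9 to 99.0) and 99.1% in wild type (99.0 to 99.1). Its level was 186.2 times that of pdc201 in the deletion and 235 times in wild type, and 237 and 224 times that of pdc202 in the deletion and in wild type. It was 1237 times that of pdc102 in the deletion and 1327 times in wild type. The sum itself was 4779.7 RPKM in the deletion and 4434 RPKM in wild type, a ratio of 1.08 (1.07 to 1.09).

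Alcohol dehydrogenase message was also led by a single gene, but less completely. The main paralogue was adh1 (SPCC13B11.01, chromosome III), the zinc-dependent enzyme that makes most of the ethanol in growing cells. It had 6378 RPKM (113400 reads) in the deletion library, against 4863 RPKM (87322 reads) in wild type. By level it held rank 6 of all genes in the deletion and rank 7 in wild type. The ratio was 1.31 (1.30 to 1.32), a log2 difference of 0.39, short of the 2-fold rule. The log2 difference of adh1 lay above the median of abundant genes. The 140 genes that averaged 1000 RPKM or more, adh1 among them, had a median of −0.35 (quartiles −0.46 and −0.05). That level was chosen after the values were seen. The set mixes kinds of genes, such as the ribosomal protein gene rpl22 (−0.69) and the glycolytic gene tpi1 (0.39). Against the 13 glycolytic genes examined, whose median was 0.39, adh1 did not stand out.

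The gene adh8 (SPBC1773.06c, chromosome II), annotated as an alcohol dehydrogenase, was the one that differed most. It had 599 RPKM in the deletion library (588 to 610.5, from 10528 reads), against 28.1 RPKM in wild type (25.6 to 30.6, from 498 reads). The ratio was 21.35 (19.5 to 23.4), and the log2 difference of 4.37 was the second largest positive one among the 4986 genes. By level it moved up to rank 242 in the deletion library, against rank 4107 in wild type. Reads covered 99.6% of its listed length in each library, by the deposited coverage value. In RNA from a whole culture, more message in every cell and message in more of the cells cannot be told apart.

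The third gene, adh4 (SPAC5H10.06c, chromosome I), is the counterpart of ADH4 of budding yeast, and in fission yeast the factor Loz1 represses it when zinc is plentiful. It had 184 RPKM (3541 reads) in the deletion library and 229 RPKM (4454 reads) in wild type. The ratio was 0.803 (0.768 to 0.839) and the log2 difference −0.32, the only negative one among the 7 genes, and it did not reach 2-fold.

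**Figure D2:**
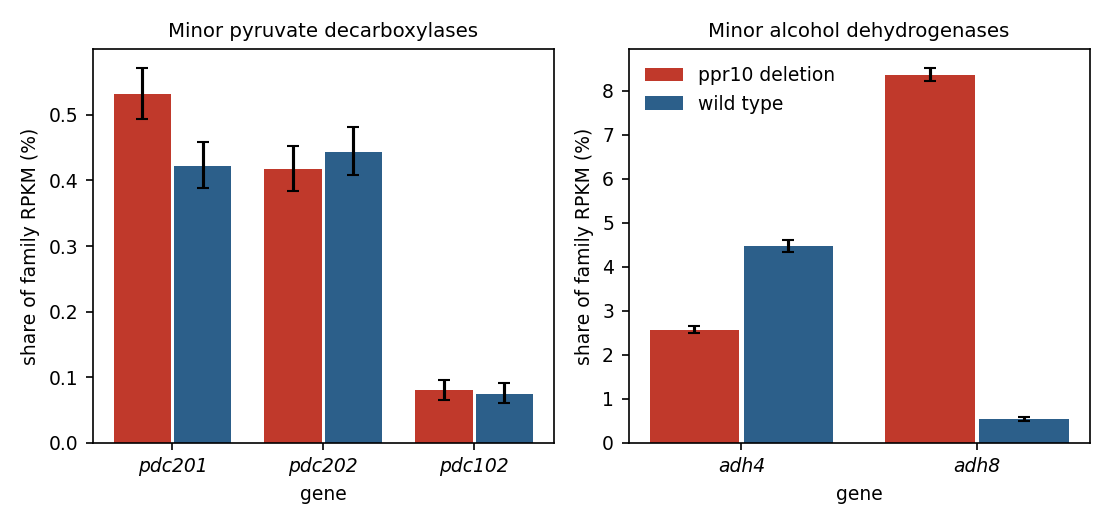
Share of the summed RPKM of its family held by each minor paralogue, in percent, in the ppr10 deletion library (red, left) and the wild-type library (blue, right); error bars are 95% counting intervals. Each minor decarboxylase gene stays under 0.6% in both libraries, while adh8 holds 8.36% of alcohol dehydrogenase RPKM in the deletion and 0.548% in wild type.

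The minor alcohol dehydrogenase genes exchanged places. The level of adh8 was 3.26 times that of adh4 in the deletion library (3.13 to 3.38) and 0.122 times in wild type (0.111 to 0.134). Of the summed RPKM of the 3 genes, adh8 held 8.36% in the deletion (8.21 to 8.52) and 0.548% in wild type (0.501 to 0.598). The share of adh4 was 2.57% in the deletion (2.49 to 2.65) and 4.47% in wild type (4.35 to 4.61).

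The main gene still held most of the family. The share of adh1 was 89.1% in the deletion library (88.9 to 89.2) and 94.98% in wild type (94.8 to 95.1). Its level was 10.6 times that of adh8 in the deletion (10.4 to 10.9) and 173 times in wild type (159 to 190), and 34.7 and 21.2 times that of adh4 in the deletion and in wild type.

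Summed over the 3 genes, alcohol dehydrogenase message was 7161 RPKM in the deletion library and 5120.2 RPKM in wild type, a ratio of 1.40 (1.39 to 1.41). Of the difference of 2041 RPKM, adh1 made up 1515 RPKM and adh8 571 RPKM, and adh4 took away 45.2 RPKM. The gene with the largest ratio was thus not the one with the largest change in amount. The sum over alcohol dehydrogenases stood at 1.498 times the sum over decarboxylases in the deletion and 1.15 times in wild type. Together the 7 genes took 1.57% of all reads in the deletion library and 1.30% in wild type.

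**Figure D3:**
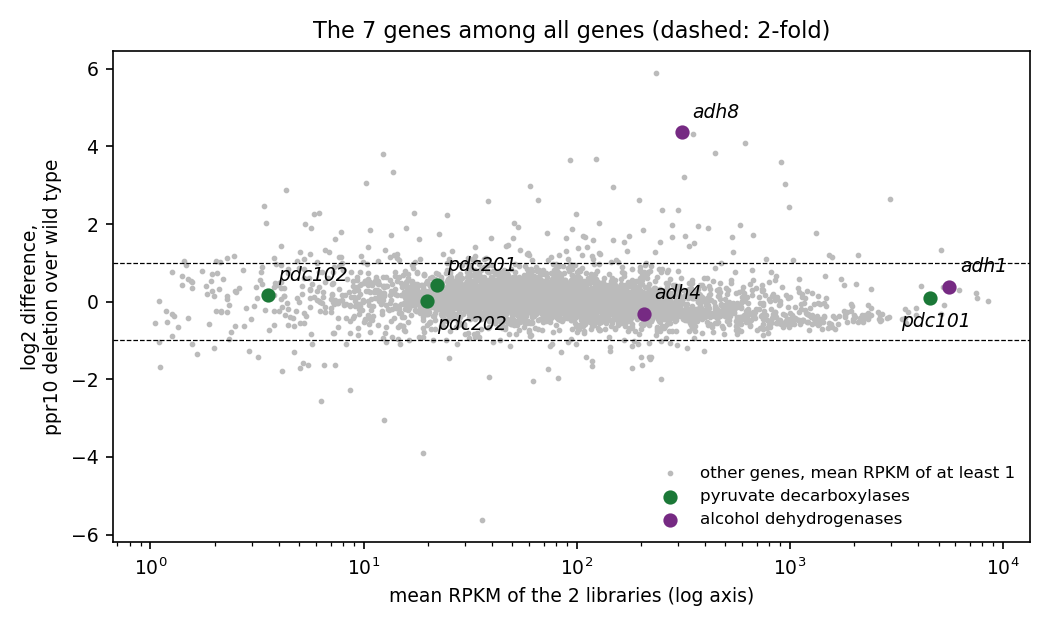
Log2 difference of the ppr10 deletion library over the wild-type library (RPKM + 1) against the mean RPKM of both on a log axis, for the 4986 genes that averaged 1 RPKM or more; dashed lines mark 2-fold. Decarboxylase genes (green) and adh1 and adh4 (purple) lie between the lines, and adh8 lies at 4.37.

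The genes whose levels lay nearest to those of each member were found by distance on the log2 scale over the 2 libraries. Nearest to adh8 was osr1, annotated as a dehydrogenase, at a distance of 0.26. Its level was 669 RPKM in the deletion and 32.5 in wild type. The next was the short chain dehydrogenase gene SPCC663.08c, much farther off at 1.11. Nearest to adh1 were 2 genes of glycolysis, tpi1 (triosephosphate isomerase, 0.15) and gpm1 (phosphoglycerate mutase, 0.23). Nearest to pdc101 were pgk1 (phosphoglycerate kinase, 0.31) and again tpi1 (0.33), although both of these had larger log2 differences, 0.41 and 0.39, than pdc101 at 0.11.

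The minor genes had neighbours in level of unrelated product. They were vps36 and SPCC4G3.12c for pdc201, ppn1 and SPAC4H3.16 for pdc202, and lys12 and ccp1 for adh4, all within 0.06. The gene pdc102 lay below the level of 5 RPKM set for this search. With only 2 libraries such a likeness rests on 1 level in each.

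Upstream of these enzymes, the 13 glycolytic genes examined all had positive log2 differences, from 0.03 to 3.59 with a median of 0.39, close to the value of adh1. Among all 4986 genes, 57.1% were positive and 2.79% were higher, with a median of 0.05. Of the 13, only gpd3, which encodes glyceraldehyde-3-phosphate dehydrogenase, was higher by the rule. It had 1676 RPKM in the deletion and 138 RPKM in wild type. The next in size were pgi1 (glucose-6-phosphate isomerase, 0.59), hxk2 (hexokinase, 0.50) and eno102 (enolase, 0.46), none of which reached 2-fold. The gene pyk1, whose enzyme makes pyruvate, had 2376 RPKM in the deletion and 1738 RPKM in wild type, a log2 difference of 0.45.

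Pyruvate can instead enter mitochondria and be oxidised by pyruvate dehydrogenase. Of 8 genes for pyruvate kinase, the mitochondrial pyruvate carrier and pyruvate dehydrogenase, none was higher or lower by the rule. Their median was −0.24, and 6 were negative, where all 4986 genes had a median of 0.05 and 57.1% were positive. The largest negative values were those of pda1, for the alpha subunit of the first dehydrogenase component (−0.40), pdx1, for a further component of that complex (−0.39), and mpc2, for the carrier (−0.29). The ratio of mpc2 has an interval that includes 1 (0.641 to 1.03). Beside pyk1 the other positive value was that of dld1 (0.16), chosen after its value was seen, whose product also serves other dehydrogenase complexes.

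Acetaldehyde can also be oxidised to acetate by aldehyde dehydrogenases. None of 4 genes listed for that branch was higher or lower by the rule, with a median of −0.13. The aldehyde dehydrogenase genes atd1 (−0.16) and atd2 (−0.62) were negative, and so was acs1, for acetyl-CoA synthetase (−0.10). The only positive value was that of atd3 (0.65), which is annotated as a betaine-aldehyde dehydrogenase. The strongest of them, atd1, had 248 RPKM in the deletion and 277 RPKM in wild type.

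Other routes that reoxidise NADH differed among themselves. Of 6 genes listed, 4 could be examined, with 1 past 2-fold upward, 1 past it downward and a median of −0.01. Among all 4986 genes, 2.79% were higher and 1.14% were lower, with a median of 0.05. The gene gpd1, for the glycerol-3-phosphate dehydrogenase of glycerol formation, had 2125 RPKM in the deletion and 923 RPKM in wild type, a ratio of 2.30 (2.26 to 2.34). The gene nde1, for a mitochondrial NADH dehydrogenase, had 99.2 RPKM in the deletion and 399.6 RPKM in wild type. The log2 differences of gpd2 (0.04) and gut2 (−0.07) were near 0. The hydroxyacid and L-lactate dehydrogenase genes SPAC186.07c and SPAC186.08c, which lie beside pdc102 and were singled out after their values were seen, had at most 10 reads in either library.

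**Figure D4:**
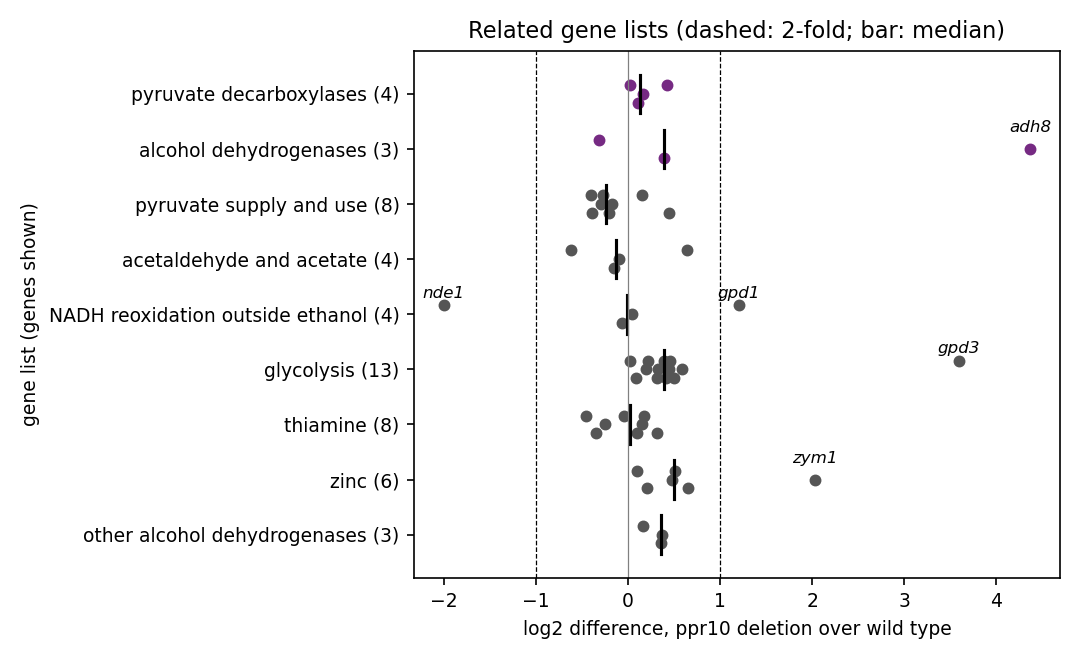
Log2 difference of the ppr10 deletion library over the wild-type library (RPKM + 1) for each gene of 9 groups that averaged 1 RPKM or more, with the number of genes shown in brackets; the bar is the median of the group and dashed lines mark 2-fold. Besides adh8, the genes past 2-fold are gpd3, gpd1 and zym1 on the positive side and nde1 on the negative side.

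Genes for the cofactors of both enzymes were looked at as well. None of 8 thiamine genes, whose pathway supplies the cofactor of pyruvate decarboxylase, reached 2-fold; the median was 0.03. The largest differences were those of the transporter gene thi9 (−0.45), the regulator gene thi1 (−0.35), the thiamine diphosphokinase gene tnr3 (0.31) and pho4 (−0.24), a thiamine-repressible phosphatase gene.

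All 6 zinc genes examined had positive log2 differences, with a median of 0.50, where 57.1% of all 4986 genes were positive with a median of 0.05. Where 2.79% of all genes were higher by the rule, 1 zinc gene was. That was the metallothionein gene zym1, chosen after its values were seen, with 16 reads in the deletion and 2 in wild type, a ratio of 8.08 (1.90 to 72.4). The transporter genes fet4 (0.65), zrt1 (0.51) and zhf1 (0.21) and the repressor gene loz1 (0.48) did not reach 2-fold. The zinc-responsive gene adh4 stood at −0.32. Since the zinc genes include transporters, a repressor and a metallothionein, a shared sign among them has no single reading. A role of zinc was not tested.

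A search of annotated products for the words alcohol dehydrogenase or formaldehyde dehydrogenase found, outside the 7 genes, the 3 glutathione-dependent formaldehyde dehydrogenase genes fmd1, fmd2 and fmd3. None reached 2-fold, with log2 differences of 0.37, 0.36 and 0.17. The best expressed, fmd1, had 205 RPKM in the deletion and 158 RPKM in wild type.

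The 3 genes on each side of each member along the chromosome were compared with it. Of these 42 neighbours, 38 could be examined, of which 4 were higher and 1 was lower, with a median of 0.08. Over all 4986 genes 2.79% were higher and 1.14% were lower, with a median of 0.05. The called neighbours all lay near pdc101, pdc102 and adh4. These are the members closest to a chromosome end in the table, at 27, 5 and 52 genes from it. None of the 6 neighbours of adh8 was higher or lower, and their log2 differences ran from −0.38 to 0.51, so the difference at adh8 was not shared by the genes beside it. Next to it in gene order lay tms1, which encodes a hexitol dehydrogenase, with 0.51 (chosen after its value was seen).

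Neighbours of other members were past 2-fold where the member itself was not. Beside pdc101 lay the glycoprotein gene pfl8, at 3.30-fold the wild-type level (3.07 to 3.55), while pdc101 stood at 1.08-fold. Beside pdc102, which is 5 genes from the end of its chromosome in the table, lay the aldo/keto reductase gene SPAC750.01, at 3.26-fold (3.07 to 3.46). The NADPH dehydrogenase gene SPAC5H10.04 lies beside adh4 and stood at 2.14-fold (1.98 to 2.32), and the next gene, SPAC5H10.05c, at 1.98-fold (1.82 to 2.16). The other neighbours past 2-fold, both chosen after their values were seen, were SPAC11D3.19 near pdc101, with 22 reads in the deletion and 8 in wild type, and SPAC186.06 near pdc102, with 12 and 43 reads in the deletion and in wild type.

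**Figure D5:**
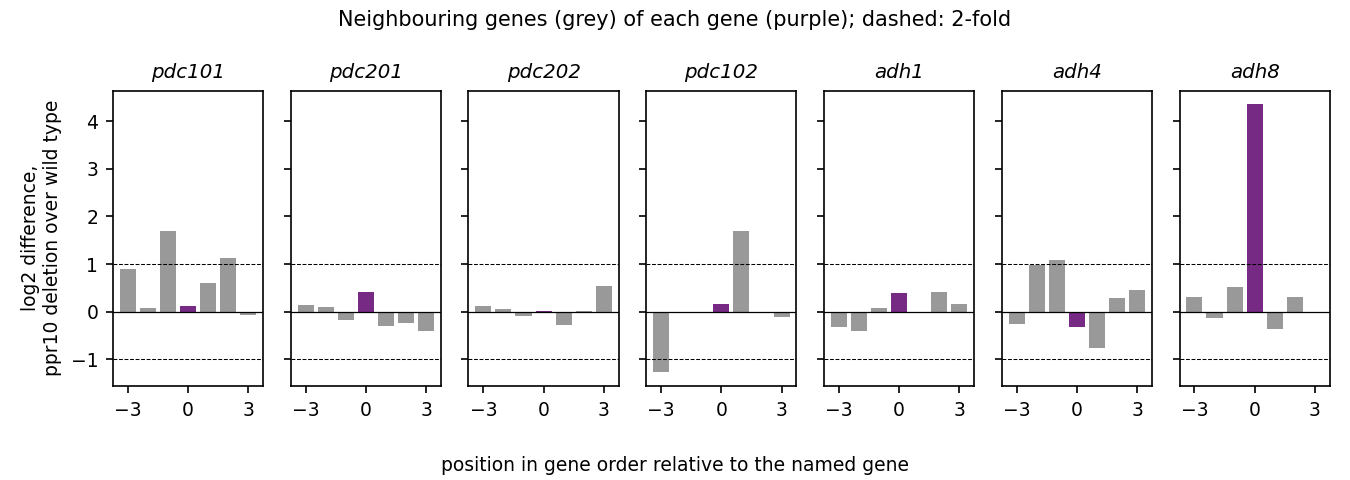
Log2 difference of the ppr10 deletion library over the wild-type library (RPKM + 1) for each of the 7 genes (purple, position 0) and the 3 genes on each side in gene order (grey), with genes under a mean RPKM of 1 left out; dashed lines mark 2-fold. The bar of adh8, at 4.37, stands alone among neighbours between −0.38 and 0.51.

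The coding sequences of the 7 genes, read from the RefSeq annotation of ASM294v3, differed in codon use. Preferred codons were taken as the most frequent synonymous codon of each amino acid in 129 cytosolic ribosomal protein genes, whose messages are heavily translated. Codons of methionine and tryptophan, which have no synonyms, were left out of the count. Of the rest, preferred codons made up 63.9% in pdc101 and 59.9% in adh1, against a median of 39.3% over 5043 genes. The gene model of pdc101 is marked there as lying in a low-quality sequence region, and it is 1710 bases long, against 1707 in the deposited table. The share was lower in the minor decarboxylase genes, at 48.7% in pdc201, 47.0% in pdc202 and 40.4% in pdc102. It was 53.6% in adh4 and 40.4% in adh8. The order of the alcohol dehydrogenases by this share, adh1, adh4, adh8, was the order of their levels in wild type and not that in the deletion library. The decarboxylase genes did not repeat this: pdc201 had a larger share than pdc202, with a level ratio of 0.953 in wild type and 1.27 in the deletion. A link between codon use and level was not tested.

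No run of 50 bases in the annotated coding sequence of any of the 7 genes occurred elsewhere in that assembly, so the paralogues share no stretch of that length; the sources used here name no read length. In the annotation, a long non-coding RNA on the opposite strand overlaps the coding part of 6 of the 7 genes, all but pdc201, and adh1 and adh8 are among them. The sources used here do not say whether strand was kept, so reads of gene and antisense RNA cannot be told apart.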

How the data were processed

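RNA from 1 ppr10 deletion culture and 1 wild-type culture in logarithmic phase was extracted with Trizol, and a NEBNext Ultra kit was used for the libraries, per the labels' protocols. The submitters' processing notes name Bowtie2 2.2.3, TopHat2 2.0.12 and the build ASM294v2. The deposited table gives, per the file headers, the count of uniquely mapped reads, RPKM and coverage of each gene in each library, with the gene's length; a dash was read as 0. RPKM as deposited by the authors equals reads over length and column total, with a largest difference of 4.99e-07. Of 5076 lengths, 5075 are multiples of 3 and were read as coding lengths.

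Columns were assigned by their names. RPKM was the measure of size and counts gave exact intervals (Clopper-Pearson for ratios and shares, Poisson for levels; SciPy 1.17.1). Log2 differences used a pseudocount of 1 RPKM, which makes those of weak genes smaller; the calculation was tested on simulated data. No count model was run, because there are no replicates. Shares are of summed RPKM.

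Names, gene order and coding sequences came from ASM294v3, which matched 5049 identifiers. Since the builds differ, no coordinates and no sequences are given. Genes named were the 7 members, the 2 nearest non-members of each member that averaged 5 RPKM or more, and, at the same level, up to 4 genes per list, taken by size of difference. Members and lists were chosen with earlier results of these data known. A listed zinc gene, SPBC1348.06c, was not analysed here. The listed name nde2 was found only as a synonym of nde1 in the annotation, so nde1 alone stands in the list. Whether both names belong to the same gene was not checked. Any further NADH dehydrogenase gene of this kind was not looked for.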

Additional observations from a re-analysis of the deposited data

How the results depend on the processing

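With adh8 as the single gene past 2-fold, the count of 1 held under both other scalings, pseudocounts of 0.1 and 5 RPKM, no filter, and a minimum mean of 5 RPKM, under which 6 of the 7 genes remained to be examined. The log2 difference of adh8 ranged between 4.19 and 4.42. Over 28 alternative values of the 7 log2 differences, 27 kept their sign; the exception was pdc202, with −0.03 after scaling to the median gene. That scaling gave ratios of deletion to wild type of 1.35 for the summed alcohol dehydrogenases and 1.04 for the summed decarboxylases. TPM gave 1.44 and 1.11 for the same sums. All of these lie outside the counting intervals of 1.39 to 1.41 and 1.07 to 1.09, which do not cover the choice of scaling. The values of adh1 and pdc101 moved out of their intervals in the same way. Leaving the 50 genes with most reads out of the library size gave 1.40 and 1.08 for the sums. As a share of reads rather than RPKM, adh1 held 94.6% of its family in wild type, because adh4 is the longer gene. The number of all genes past 2-fold ran from 103 higher and 37 lower with a pseudocount of 5 RPKM, out of 4986, to 157 higher and 69 lower with one of 0.1 RPKM. No paired analysis was possible because there is a single library per group, and leaving out replicates was not possible either. Counts of 111 and 97 reads limit what can be said of pdc102.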
